A study of Mus musculus with 6 samples.

Results

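The genes described here are 35 splicing factors: 10 SR proteins, 2 Tra2 proteins, 12 heterogeneous nuclear ribonucleoproteins (hnRNPs), the polypyrimidine tract-binding proteins Ptbp1 and Ptbp3, 7 proteins of the spliceosome, and the regulators Rbm39 and Mbnl1. They were chosen by gene symbol from the 53819 genes of the deposited table, and all 35 had a row. RNA was sequenced from sorted leukaemia cells of the spleen, taken from mice given a primary leukaemia that carries BCR-ABL and NUP98-HOXA9. This pair of fusion genes, a model of chronic myeloid leukaemia in blast crisis (bcCML), was carried by both groups. The 3 libraries KO1 to KO3 are labelled SLC6A6 KO and the 3 libraries WT1 to WT3 are labelled SLC6A6 WT, and the comparison is between libraries with these labels, which name the taurine transporter Slc6a6. The series title calls the change a knock-down. Neither the allele, nor the sorting marker, nor the strain and age of the mice is stated in the labels. It is also unstated if each library is a different mouse. The p-values therefore describe the spread between these libraries alone, and part or all of that spread may be technical.

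Splicing removes introns from the primary transcript. SR proteins bind enhancer sequences in exons and recruit the spliceosome through domains rich in arginine and serine, many hnRNPs bind silencer sequences and oppose them, and the balance helps to set which exons are kept. The U2AF heterodimer recognises the end of the intron, the SF3A and SF3B complexes hold the branch site within the U2 particle, and Prpf8 lies at the catalytic centre. Many SR and hnRNP genes limit their own level through an exon or intron that exposes the transcript to nonsense-mediated decay. In human myeloid malignancy SF3B1, U2AF1 and SRSF2 are recurrent targets of mutation, which counts of reads per gene do not show. Such counts also show neither exon inclusion nor intron retention.

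The KO libraries held 42829294 to 44902511 counts and the WT libraries 44950191 to 49537098 counts. Slc6a6 was at 125, 132 and 133 CPM (counts scaled to library size) in KO, against 151, 145 and 145 CPM in WT, a log2 fold change of −0.18 ± 0.07 (SE, adjusted p = 0.196 in edgeR's quasi-likelihood test). KO lay below WT without passing the test, and since the labels do not state which part of the gene was altered, this level does not check the genotype. Of the 11 immature myeloid markers, all but Mpo and Elane were detected in all 6 libraries, among them Hoxa9, Meis1, Ptprc and Spi1. Kit was at 44.6 to 75.9 CPM in KO and 9.90 to 25.6 CPM in WT. Cd34 was at 0.878 to 2.42 CPM in KO and 3.14 to 16.9 CPM in WT. Itgam was at 0.196 to 1.76 CPM over the 6 libraries, and the granule genes Mpo and Elane had 0 counts in KO1. Counts of 4 Y-linked genes summed to 10274 to 11236 in KO libraries and 0 to 1 in WT libraries, so the sex of the cells and the SLC6A6 label cannot be told apart; 0 of the 35 splicing factor genes lie on X or Y. Erythroid markers summed to 8293 to 27873 CPM in KO and 2767 to 11523 CPM in WT (0 of 13 tested called), and neutrophil markers to 14.8 to 208 CPM in KO and 109.5 to 771 CPM in WT (0 of 8). T and NK cell markers summed to 746 to 1053 CPM in KO and 705 to 858 CPM in WT (5 of 11 higher), mostly Nkg7, with Cd4 and Ncr1 at 0 in all WT libraries. At low levels, Cd3d, Cd3e, Cd3g, Trac, Trbc1, Trbc2, Cd8a and Cd4 lay above WT in every KO library. Cd3e, for example, was at 2.88, 1.00 and 2.55 CPM in KO, against 0.0792, 0 and 0 CPM in WT. Nkg7, Klrb1c, Lck and Ncr1 did not separate the groups. B and plasma cell markers summed to 63.2 to 166 CPM in KO and 5.47 to 43.3 CPM in WT (2 of 7 higher, Pax5 at 0 in all WT libraries). Macrophage markers summed to 104 to 159 CPM in KO and 33.9 to 50.8 CPM in WT (3 of 9 higher). Stromal and endothelial markers summed to 132 to 193 CPM in KO and 117 to 253 CPM in WT (0 of 3). These sums were mostly Col1a2, at 93.0 to 243 CPM over the 6 libraries, with Col3a1 and Cdh5 at 0 in all 6. Immature myeloid markers summed to 453 to 522 CPM in KO and 388 to 674 CPM in WT (1 of 11 higher). Proliferation genes summed to 4211 to 5572 CPM in KO and 3106 to 3895 CPM in WT (3 of 12 higher), without overlap. Their part in the levels below was not tested, and in bulk RNA fewer cells of a type and less RNA per cell cannot be told apart.

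None of the 35 splicing factor genes passed the test, and their levels in KO and WT libraries lay close together. At an adjusted p (Benjamini-Hochberg) below 0.05 in edgeR's quasi-likelihood test, 0 were higher and 0 were lower in KO, where 1.64% of the 15232 genes tested were higher and 1.92% were lower (3.56% in either direction). Among the 4998 genes that, like all 35, had a mean of at least 50 CPM, the share was 3.92%. Beside shares this small, a count of 0 in 35 is near the background and is no result about these genes. At an unadjusted p below 0.05 there were 2 of the 35, Srsf4 and Srsf9, against 22.0% of all genes tested and 27.9% of those with a mean of at least 50 CPM. Limma-voom called 0 of the 35 (2.96% of all genes), and DESeq2's Wald test, which called 13.1% of all genes, called 1, Srsf9, at an adjusted p of 0.0481.

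What the libraries do give is a 95% interval for each difference, taken gene by gene and from the spread between these libraries alone. The log2 fold changes ran from −0.23 for Srsf9 to 0.24 for Srsf4, or from 14.7% lower to 18.1% higher in KO. The 35 intervals at 95% reached from 0.715-fold to 1.37-fold, and 35 of 35 lay within 1.5-fold in either direction. The same held for 35.5% of all genes tested and for 73.5% of those with a mean of at least 50 CPM. The median log2 fold change was 0.01 with quartiles of −0.07 and 0.05, beside 0.01 with quartiles of −0.23 and 0.31 for all genes tested. For those with a mean of at least 50 CPM it was −0.02, with quartiles of −0.17 and 0.16. There were 18 positive and 17 negative values. In 20 of the 35 genes the group means differed by less than the pooled SD of the replicates. The same held for 7265 of the 15232 genes tested and 2044 of the 4998 with a mean of at least 50 CPM. These are well-counted genes, with means of 56.2 to 2165 CPM. Their median SE was 0.07, against 0.22 for all genes tested and 0.11 for those with a mean of at least 50 CPM. A p above the threshold does not show that the groups are alike, and the interval of each gene gives the differences these libraries leave possible.

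**Figure D1:**
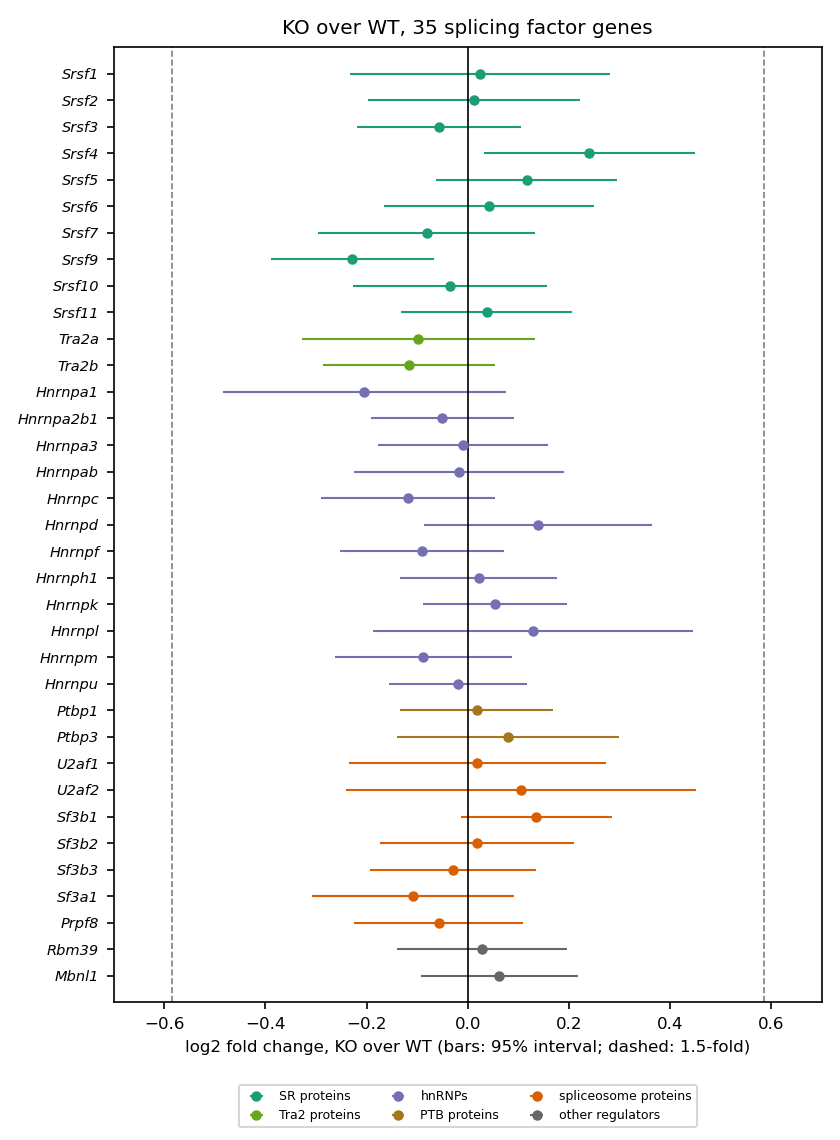
Log2 fold change (KO over WT) of the 35 splicing factor genes, with 95% intervals as bars and dashed lines at 1.5-fold in either direction. The points lie between −0.23 (Srsf9) and 0.24 (Srsf4), and no bar reaches a dashed line.

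The order of levels between genes can be read only per length. Counts were divided by the length of each gene's exons in GENCODE M21, merged over all its annotated transcripts. They were then scaled to the same sum in each library, a level written here as TPM. The merged length includes exons of retained-intron and decay transcripts, so the order depends in part on the annotation. Averaged over the 6 libraries, Hnrnpa2b1 stood highest at 1053 TPM, followed by Hnrnpab at 892, Hnrnpk at 668, Srsf2 at 608, Srsf7 at 578 and Hnrnpu at 554 TPM. Tra2a, at 28.7 TPM, and Srsf4, at 50.4 TPM, stood lowest. Spliceosome proteins ranked 17 to 30 among the 35 genes, from 198 TPM for U2af1 through 184 for Sf3b3 and 149.7 for Sf3b1 to 98.1 for U2af2. In 6 of the 34 neighbouring pairs of this order the ranges of the 6 libraries did not overlap, namely below Hnrnpa2b1, Hnrnpab, Srsf6, Rbm39, Srsf10 and Srsf4. The ranges of the other neighbours overlapped, and whether they differ within libraries was not tested. Among all genes with a length, Hnrnpa2b1 ranked 93 and Tra2a ranked 5409.

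**Figure D2:**
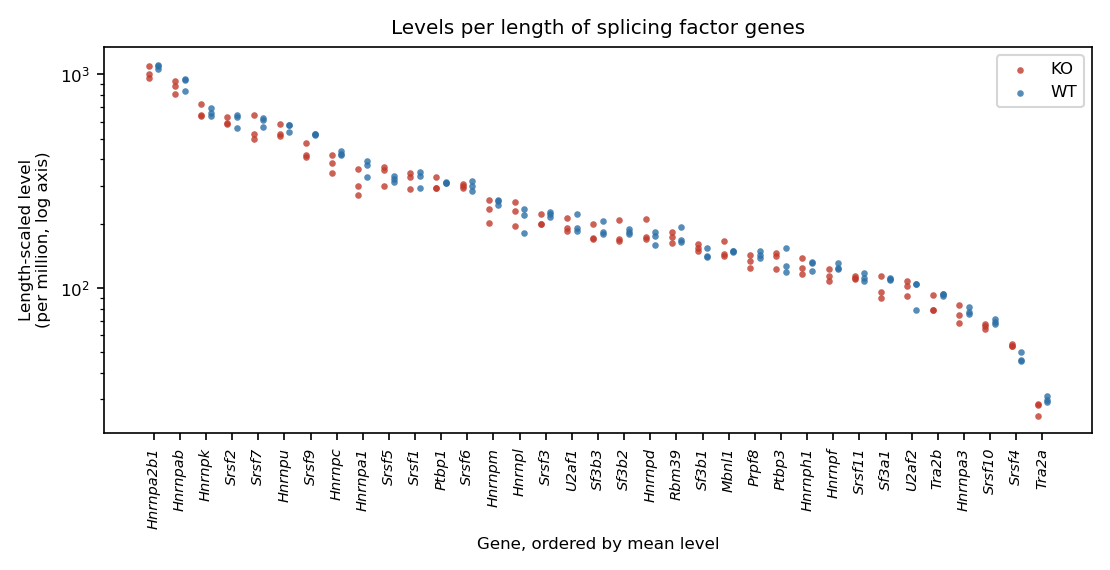
Level per length (TPM, logarithmic axis) of the 35 genes in each library, with KO points left of WT points. Levels run from 1053 TPM for Hnrnpa2b1 to 28.7 TPM for Tra2a as means over the 6 libraries.

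SR proteins held both ends of the range of fold changes, with a median of 0.02 over 10 genes. Srsf9, a small SR protein, was at 222, 236 and 226 CPM in KO1 to KO3, against 258, 278 and 265 CPM in WT1 to WT3. Every KO value lay below every WT value (log2 fold change −0.23 ± 0.07, 95% interval −0.39 to −0.07, adjusted p = 0.116 in edgeR). Srsf4, a long SR protein first described as SRp75, was at 61.01, 57.5 and 64.0 CPM in KO, against 52.8, 51.7 and 50.05 CPM in WT. Here every KO value lay above every WT value (0.24 ± 0.09, 0.03 to 0.45, adjusted p = 0.174 in edgeR). Gm12992, annotated on the opposite strand, overlaps 43.02% of the exon bases of Srsf4 and averaged 19 counts a library. The 250 bases before the first RefSeq start of both genes (GRCm38.p6) are shown, because these genes lay farthest from 0 in each direction. Capitals mark the GC box, GGGCGG or CCGCCC on the other strand, where neighbouring matches may share letters.
Srsf9, chr5:115326927-115327176, plus strand: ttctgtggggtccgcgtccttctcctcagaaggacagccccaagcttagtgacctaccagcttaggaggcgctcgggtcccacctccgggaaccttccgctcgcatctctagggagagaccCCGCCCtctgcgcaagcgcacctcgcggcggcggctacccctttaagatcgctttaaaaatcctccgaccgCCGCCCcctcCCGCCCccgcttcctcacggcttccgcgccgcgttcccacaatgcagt
Srsf4, chr4:131873387-131873636, plus strand: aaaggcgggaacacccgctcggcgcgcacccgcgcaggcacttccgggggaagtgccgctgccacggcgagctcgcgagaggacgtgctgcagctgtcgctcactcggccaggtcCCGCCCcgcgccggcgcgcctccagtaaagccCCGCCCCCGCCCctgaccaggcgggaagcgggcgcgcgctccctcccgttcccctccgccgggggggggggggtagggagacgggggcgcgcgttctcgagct
Each window held 3 GC boxes and 0 CCAAT, E or TATA boxes, at a GC content of 65.2% for Srsf9 and 77.2% for Srsf4.

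The other 8 SR proteins overlapped between the groups. Srsf1, the founding member of the family, was at 531, 588 and 630.4 CPM in KO, against 496, 613 and 611 CPM in WT. WT1 was the lowest library and KO3 the highest (0.02 ± 0.11). Srsf2, which binds exonic enhancers and is found in nuclear speckles, was at 559.5, 553 and 582 CPM in KO, against 495, 597 and 589 CPM in WT. WT1 was again lowest (0.01 ± 0.09), and exons of Mettl23 and Mfsd11 on the opposite strand overlap 25.3% of the exon bases of Srsf2. Srsf3, the smallest SR protein, was at 505, 519 and 526 CPM in KO, against 506, 559 and 548 CPM in WT (−0.06 ± 0.07). Srsf7, its close relative with a zinc knuckle, was at 601, 677 and 589 CPM in KO, against 597, 696 and 682 CPM in WT (−0.08 ± 0.09). WT2 was highest in both. Srsf5 averaged 429.9 ± 27.6 CPM in KO and 397 ± 15.9 CPM in WT (SD, n = 3 each), the second highest fold change of the class at 0.12 ± 0.08, with overlap between KO3 and WT2. Srsf6, Srsf10, a repressor once dephosphorylated, and Srsf11 had log2 fold changes of 0.04, −0.04 and 0.04.

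Both Tra2 proteins, SR-like activators that bind purine-rich enhancers, had negative values. Tra2b was at 233, 255 and 244 CPM in KO, against 257, 276 and 259.7 CPM in WT. The KO values lay below the WT values by a narrow margin (−0.12 ± 0.07, 95% interval −0.29 to 0.05, adjusted p = 0.403 in edgeR). Tra2a was at 56.2, 58.1 and 66.2 CPM in KO, against 61.8, 64.8 and 66.5 CPM in WT, with overlap (−0.10 ± 0.10).

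Among the 12 hnRNPs, 4 had positive and 8 negative log2 fold changes, with a median of −0.02. Hnrnpa1, a repressor of exon inclusion, was at 274, 336 and 315 CPM in KO, against 308, 395 and 363 CPM in WT. The groups overlapped, with KO1 lowest and WT2 highest, and the fold change was the lowest of the class (−0.20 ± 0.12, 95% interval −0.48 to 0.07, adjusted p = 0.369 in edgeR). Hnrnpa2b1, a relative that also binds RNA in transport granules, was at 2120.2, 2149.7 and 2113 CPM in KO, against 2174, 2295 and 2141 CPM in WT. Its 3 KO libraries varied by a coefficient of variation of 0.921% and overlapped with WT (−0.05 ± 0.06). The promoters of both are shown, Hnrnpa1 for the widest library spread among the genes with a RefSeq promoter entry and Hnrnpa2b1 for the highest level per length. Capitals mark the CCAAT box, CCAAT or ATTGG on the other strand, and the GC box, with no letter shared between the 2 motifs.
Hnrnpa1, chr15:103240147-103240396, plus strand: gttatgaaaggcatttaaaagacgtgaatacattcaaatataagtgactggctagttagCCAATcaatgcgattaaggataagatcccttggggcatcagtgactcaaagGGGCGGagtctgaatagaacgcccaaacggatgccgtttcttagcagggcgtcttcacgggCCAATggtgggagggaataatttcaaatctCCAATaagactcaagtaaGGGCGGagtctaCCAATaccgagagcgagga
Hnrnpa2b1, chr6:51469895-51470144, minus strand: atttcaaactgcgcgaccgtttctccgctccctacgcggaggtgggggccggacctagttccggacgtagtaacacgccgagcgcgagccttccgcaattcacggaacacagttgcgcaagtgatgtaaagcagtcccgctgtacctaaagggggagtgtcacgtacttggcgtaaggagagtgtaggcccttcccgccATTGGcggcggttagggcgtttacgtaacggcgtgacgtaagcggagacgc
Hnrnpa1 held 4 CCAAT boxes and 2 GC boxes at a GC content of 46.0%, and Hnrnpa2b1 held 1 CCAAT box and 0 GC boxes at 59.6%.

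Hnrnpc, which binds nascent transcripts along their length, was at 535, 540.3 and 497 CPM in KO, against 545, 603 and 559 CPM in WT. Hnrnpf, which binds G-rich sequences, was at 112, 111 and 109 CPM in KO, against 118, 119.9 and 116 CPM in WT. In both genes the KO libraries lay below the WT libraries, at 7.92% and 6.08% lower and adjusted p-values of 0.397 and 0.499 in edgeR. Hnrnpd (AUF1), a regulator of mRNA decay, was at 400.3, 462 and 425 CPM in KO, against 348, 409.7 and 412 CPM in WT, with overlap and WT1 lowest (0.14 ± 0.10, the highest value of the class). Hnrnpl, which binds CA repeats, was at 373, 445 and 456 CPM in KO, against 320.0, 417 and 428 CPM in WT. In each group library 1 was the lowest, and the groups overlapped (0.13 ± 0.13, 95% interval −0.19 to 0.45). Hnrnpu, a protein of the nuclear scaffold, was at 1965, 2014 and 1999.5 CPM in KO, against 1992, 1994 and 2072 CPM in WT. Its highest library exceeded its lowest by 1.05-fold, the smallest spread of the 35 genes (−0.02 ± 0.06). Hnrnpk, which binds C-rich sequences, averaged 1374 ± 43.8 CPM in KO and 1324 ± 18.3 CPM in WT (SD, n = 3 each, 0.05 ± 0.06). The remaining Hnrnpa3, Hnrnpab, Hnrnph1 and Hnrnpm had log2 fold changes of −0.01, −0.02, 0.02 and −0.09, and all overlapped.

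The polypyrimidine tract-binding proteins repress exons flanked by pyrimidine-rich tracts. Ptbp1 was at 446, 465 and 464 CPM in KO, against 440.0, 468 and 451 CPM in WT (0.02 ± 0.06). Ptbp3, the relative known from blood cells, was at 340.0, 322 and 306 CPM in KO, against 341, 284 and 291 CPM in WT (0.08 ± 0.09). Both overlapped, and WT1 was the highest library for Ptbp3.

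Of the 7 spliceosome proteins, Sf3b1 had the smallest p. Sf3b1, the branch-site subunit of the U2 particle, was at 562, 540.4 and 569 CPM in KO, against 519.9, 509 and 493 CPM in WT. Every KO value lay above every WT value, at 9.83% higher (0.14 ± 0.06, 95% interval −0.01 to 0.28, adjusted p = 0.267 in edgeR). Its partners in the same complex did not share this order: Sf3b2 was at 365, 420.4 and 387 CPM in KO, against 363, 398 and 396 CPM in WT (0.02 ± 0.08). Sf3b3 was at 594, 644 and 624 CPM in KO, against 667, 623 and 612 CPM in WT (−0.03 ± 0.07), with WT1 highest. Whether the subunits differ from each other was not tested. Sf3a1, of the SF3A complex, was at 177, 207 and 197 CPM in KO, against 199, 219 and 207 CPM in WT (−0.11 ± 0.08). Prpf8 was at 296, 318 and 333 CPM in KO, against 329, 331 and 325 CPM in WT (−0.06 ± 0.07), so KO1 was lowest and KO3 highest.

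The U2AF subunits varied more between WT libraries than between groups. U2af1, which reads the AG at the end of the intron, was at 154, 164 and 167 CPM in KO, against 143, 184 and 152 CPM in WT (0.02 ± 0.11). U2af2, which binds the pyrimidine tract, was at 120.4, 132 and 141 CPM in KO, against 95.9, 138 and 132 CPM in WT. WT1 lay below all other libraries, and the coefficient of variation in WT, 18.6%, was the highest of the 35 genes (0.10 ± 0.15, 95% interval −0.24 to 0.45). Rbm39, an SR-like partner of U2AF and the target of aryl sulfonamide degraders, was at 385, 378 and 376 CPM in KO, against 396, 371 and 351 CPM in WT (0.03 ± 0.07). Mbnl1, a muscleblind protein that regulates developmental splicing, was at 848, 923 and 907 CPM in KO, against 831, 878 and 856 CPM in WT (0.06 ± 0.07). Both overlapped.

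Between libraries, the 35 genes varied by amounts similar to the differences between groups. Together they took 1.71, 1.85 and 1.71% of the counts of KO1 to KO3, against 1.74, 1.81 and 1.79% of those of WT1 to WT3. The lowest value of a gene was most often in WT1 (11 genes) and KO1 (9 genes), and the highest most often in WT2 (14 genes) and KO3 (9 genes). The highest library exceeded the lowest by 1.05-fold for Hnrnpu up to 1.47-fold for U2af2, with Hnrnpa1 at 1.44-fold and Hnrnpl at 1.43-fold. The median coefficient of variation was 4.50% in KO and 4.57% in WT. Groups did not overlap in 6 of the 35 genes, against 28.0% of all genes tested and 31.4% of those with a mean of at least 50 CPM. KO was above WT for Srsf4 and Sf3b1, and below WT for Srsf9, Tra2b, Hnrnpc and Hnrnpf. Without WT1, the median log2 fold change of the 35 genes was −0.06 rather than 0.01, and 26 values were negative rather than 17.

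**Figure D3:**
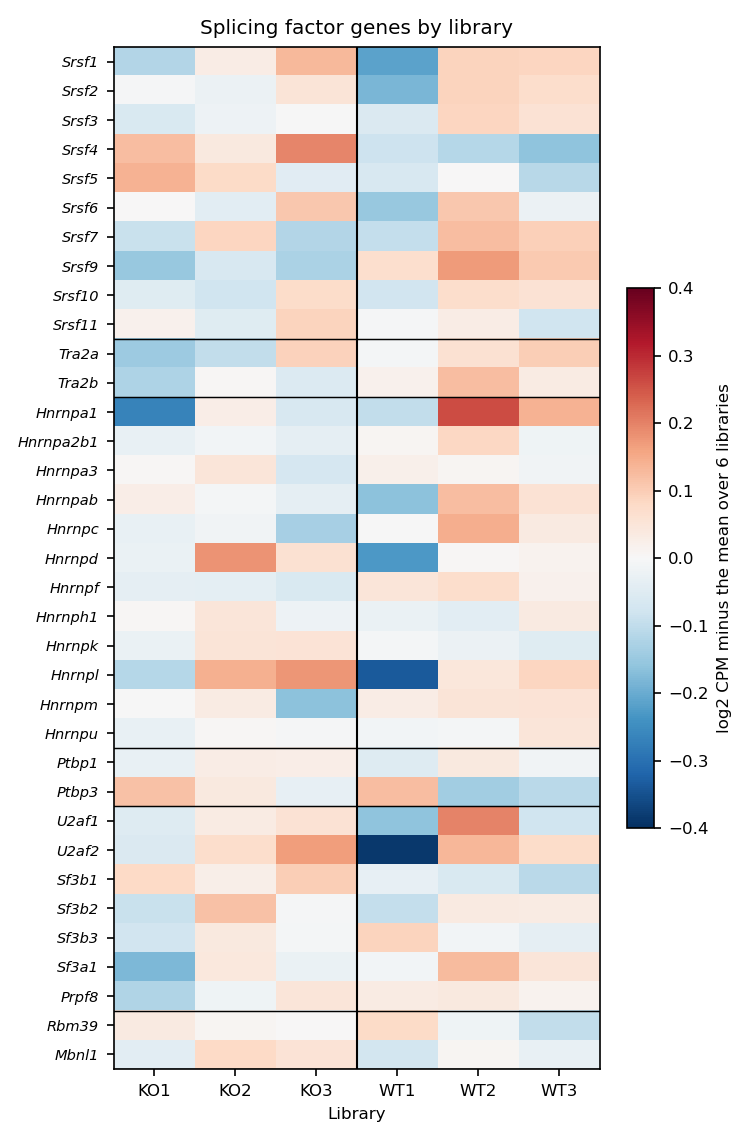
Log2 CPM of each of the 35 genes in KO1 to KO3 and WT1 to WT3, as the difference from the gene's mean over the 6 libraries (colour scale −0.4 to 0.4). Low values gather in WT1, which is lowest for 11 genes, and high values in WT2, which is highest for 14 genes.

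The proportions of close relatives differed between the groups by at most 0.15 on the log2 scale. The log2 ratio of counts of Tra2a to Tra2b was −2.02 ± 0.13 in KO and −2.04 ± 0.07 in WT (SD, n = 3 each). For Ptbp1 to Ptbp3 it was 0.51 ± 0.11 in KO and 0.57 ± 0.18 in WT, and for Srsf3 to Srsf7 −0.27 ± 0.11 in KO and −0.29 ± 0.04 in WT. For Srsf2 to Srsf1 it was −0.04 ± 0.10 in KO and −0.03 ± 0.03 in WT. The largest differences were those of Hnrnpa1 to Hnrnpa2b1, −2.79 ± 0.14 in KO and −2.64 ± 0.16 in WT, and of Hnrnpd to Hnrnpab, −0.85 ± 0.12 in KO and −1.0 ± 0.04 in WT. In 6 ratios, two-sided exact permutation tests gave p-values of 0.2 to 1 and adjusted values of 0.9 to 1. The smallest p that 3 libraries against 3 allow is 0.1, so these tests could not pass the threshold.

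The annotation shows what counts per gene combine. In GENCODE M21, 23 of the 35 genes (65.7%) carry a transcript labelled for nonsense-mediated decay, against 29.0% of 12184 protein-coding genes tested, and 29 (82.9%) carry a retained-intron transcript, against 59.2%. Rbm39 has 8 decay-labelled transcripts and Hnrnpd has 4. Counts add these to the coding transcripts. Exons of another gene overlap on the opposite strand in 13 of the 35, and the library chemistry does not mark strand. Among them are Hnrnpab (29.1% of its exon bases, with Phykpl), Hnrnpf (26.4%) and Ptbp1 (20.7%). The overlapping genes averaged 1791 counts a library for Hnrnpab, 35 and 10 for Hnrnpf, and 103, 134 and 0 for Ptbp1. Mettl23, which overlaps Srsf2, averaged more counts than Phykpl. Cog4, which overlaps 1.72% of the exon bases of Sf3b3, averaged 4515 counts a library. How far reads of the overlapping genes add to these levels was not tested. Near-identical annotated pseudogene copies, at least 95% identical over at least 300 bases, were found for 12 genes and numbered 59. Their own counts were 0.066% (Ptbp1) to 2.79% (Hnrnpk) of the parent's, with 1.02% for the 26 copies of Hnrnpa3. No source used here states how reads matching several places were counted. Levels of these 12 genes are therefore uncertain, by an amount that the counts of the copies do not bound.

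In the 250 bases before the start, 33 of the 35 genes had a RefSeq entry (U2af2 and Ptbp3 are named only). The CCAAT box, searched as CCAAT on both strands, was present in 19 of 33 (57.6%), against 36.8% of 10658 tested genes and 34.5% of all 27025 promoters. The GC box, searched as GGGCGG, was present in 21 (63.6%), against 57.3% of tested genes and 32.9% of all. The E box, searched as CACGTG, was present in 4 (12.1%), against 8.3% of tested genes and 6.0% of all, and the TATA box, searched as TATAAA, in 5 (15.2%), against 6.9% of tested genes and 13.0% of all. The median GC content was 59.2% for these genes and for tested genes alike. These are counts of letters, not of bound sites.

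Beyond the 35 genes, 148 of 156 other splicing genes in 5 lists were tested, and 2 of them fell in KO while 0 rose (edgeR, 3.56% of all genes tested). At an unadjusted p below 0.05 there were 20 of the 148, against 22.0% of all genes tested. These shares lie below the background and are no result about the lists. Of 26 SR-related proteins and SR protein kinases, 0 rose and 0 fell (median log2 fold change 0.10, 4 at an unadjusted p below 0.05). Of 21 other hnRNPs and related proteins, 0 rose and 0 fell (median 0.05, 3 at an unadjusted p below 0.05). Of 59 other spliceosome proteins, 1 fell, Rbm17 (median −0.06, 6 at an unadjusted p below 0.05). Of 27 other splicing regulators, 1 fell, Esrp2 (median −0.04, 7 at an unadjusted p below 0.05). Of 15 genes of the exon junction complex and nonsense-mediated decay, 0 rose and 0 fell (median −0.06, 0 at an unadjusted p below 0.05). The median over all genes tested was 0.01. By other tools, limma-voom called 1 of the 148 (2.96% of all genes) and DESeq2 called 7 (13.1% of all genes), namely Rbm17, Snrpb2, Esrp2, Clk3, Hnrnph3, Txnl4a and Mbnl3.

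Esrp2, a splicing regulator known from epithelial cells, fell to 3.69, 2.98 and 4.82 CPM in KO, against 35.8, 23.8 and 25.7 CPM in WT. The groups were far apart, at 86.5% lower (−2.89 ± 0.26, 95% interval −3.50 to −2.28, adjusted p = 0.00542 in edgeR). Leaving out each library in turn gave adjusted p-values of 0.0158 to 0.0362, whereas with a block for replicate number Esrp2 was not called. Exons of Nfatc3 and 1810019D21Rik on the opposite strand overlap 7.79% of its exon bases. Nfatc3 averaged more counts a library than Esrp2, and the library chemistry does not mark strand. How far reads of Nfatc3 add to the level of Esrp2 was not tested. Rbm17 (SPF45), a protein that takes part in recognising the end of the intron, fell to 160.3, 169 and 163 CPM in KO, against 200.5, 213 and 210.5 CPM in WT. The groups did not overlap, at 21.0% lower (−0.34 ± 0.07, 95% interval −0.50 to −0.18, adjusted p = 0.0465 in edgeR). This call was lost whichever of KO1, KO2, KO3, WT1, WT2 or WT3 was left out, at adjusted p-values of 0.0617 to 0.177. The promoter of Rbm17 is shown as that of the spliceosome gene that passed the test, with its CCAAT box in capitals.
Rbm17, chr2:11603200-11603449, minus strand: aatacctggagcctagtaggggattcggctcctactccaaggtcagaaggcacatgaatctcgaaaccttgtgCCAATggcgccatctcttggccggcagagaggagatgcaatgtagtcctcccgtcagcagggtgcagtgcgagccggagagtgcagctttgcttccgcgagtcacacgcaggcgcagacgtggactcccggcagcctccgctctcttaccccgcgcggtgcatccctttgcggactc
It held 1 CCAAT box and 0 GC boxes at a GC content of 60.8%.

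**Figure D4:**
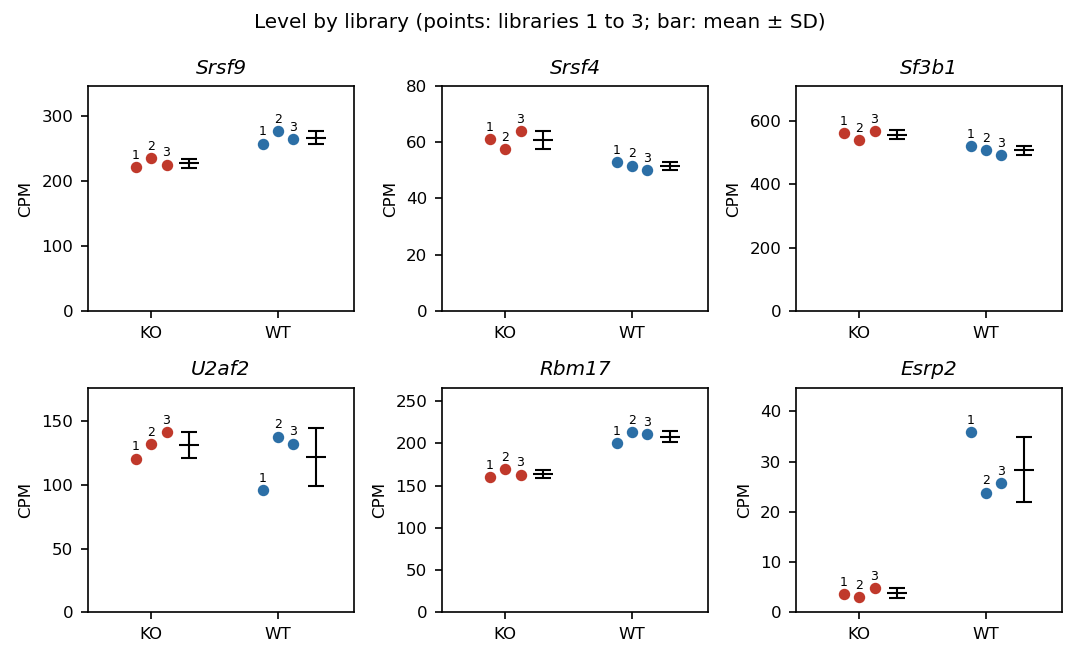
CPM by library (points numbered 1 to 3, bars mean ± SD, axes from 0) of Srsf9, Srsf4, Sf3b1, U2af2, Rbm17 and Esrp2, KO left of WT. Esrp2 averaged 3.83 ± 0.928 CPM in KO and 28.4 ± 6.45 CPM in WT, whereas U2af2 overlapped, with WT1 lowest at 95.9 CPM.

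Of the kinases that phosphorylate SR proteins, Clk3 came closest to the threshold. Clk3 was at 117, 91.2 and 124 CPM in KO, against 78.4, 75.8 and 73.9 CPM in WT (0.54 ± 0.12, adjusted p = 0.0630 in edgeR). Clk4 was at 66.4, 52.1 and 60.6 CPM in KO, against 51.7, 45.1 and 44.5 CPM in WT (0.34 ± 0.12). Srpk1, the cytoplasmic kinase, was at 162, 175 and 149 CPM in KO, against 176, 201 and 211 CPM in WT (−0.28 ± 0.10). Clk3 and Clk4 had positive values and Srpk1 a negative one, and none passed the test.

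The genes with the smallest p in the other lists, called ones aside, were as follows. Hnrnph3 was at 52.2, 47.6 and 44.5 CPM in KO, against 36.0, 38.2 and 36.3 CPM in WT (0.38 ± 0.10, adjusted p = 0.0919 in edgeR). Tardbp (TDP-43) was at 279.9, 319 and 309 CPM in KO, against 348, 361 and 342 CPM in WT (−0.21 ± 0.08), and Syncrip (hnRNP Q) had −0.18 ± 0.07. In all 3 genes KO and WT libraries did not overlap, which their choice by smallest p favours. Over the 21 other hnRNPs and related proteins, KO lay above WT in 4 and below WT in 3. Without overlap were 28.0% of all genes tested. In the spliceosome, Snrpb2, a protein of the U2 particle, was at 76.4, 80.3 and 76.3 CPM in KO, against 96.6, 96.8 and 99.8 CPM in WT (−0.33 ± 0.07, adjusted p = 0.0607 in edgeR). Txnl4a, a protein of the U5 particle, was at 87.5, 82.7 and 83.0 CPM in KO, against 96.5, 107 and 106 CPM in WT (−0.29 ± 0.08, adjusted p = 0.0995 in edgeR). Mbnl3 had a log2 fold change of 0.32 ± 0.11 and the cold-inducible Cirbp of 0.44 ± 0.16. Of the decay and junction genes, Rbm8a had −0.18 ± 0.09 and Casc3 0.15 ± 0.08, neither past the test.

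**Figure D5:**
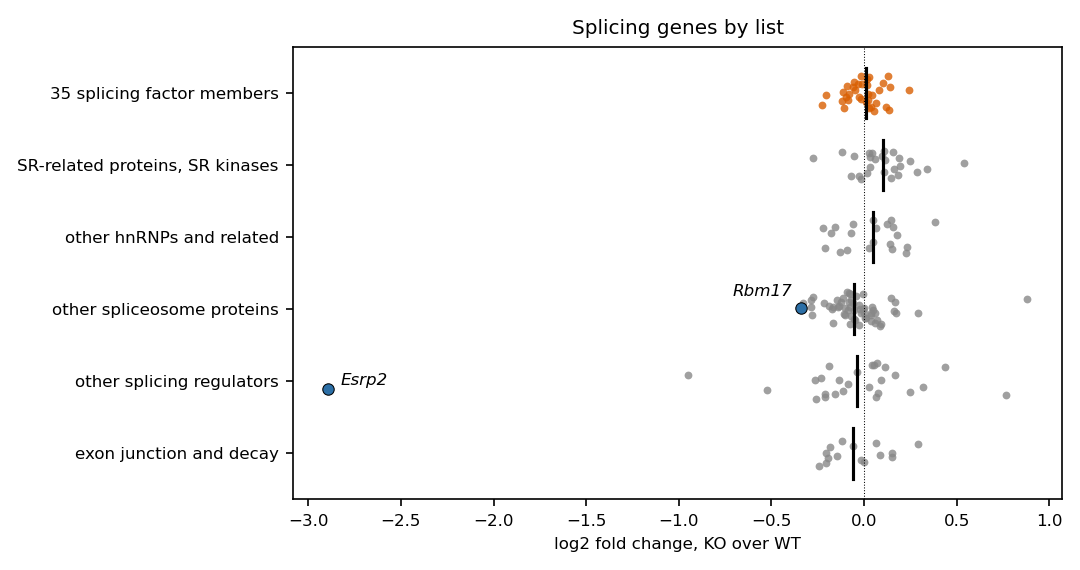
Log2 fold change (KO over WT) of the 35 splicing factor genes and of the 5 lists of other splicing genes, 1 point a gene, with the median as a black line and called genes in blue. Medians lie between −0.06 and 0.10, and the called genes are Rbm17 at −0.34 and Esrp2 at −2.89.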

How the data were processed

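RNA from 6 libraries was pre-amplified from poly(A) tails and tagmented, per the labels' protocols. The chemistry marks neither strand nor molecules, and whether PCR copies were removed before counting is not stated. The deposited values are counts of reads per gene, made by the authors with STAR 2.7.9a, fastp 0.23.1, featureCounts and Subread 2.0.1 (tools listed without an order), per the submitters' processing notes. No source used here gives their settings, the genome build or the annotation. Depth was 42829294 to 49537098 counts a library.

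Genes were filtered with filterByExpr by group (minimum count 10, minimum total 15), which left 15232. Libraries were scaled by TMM and compared with the quasi-likelihood F test of edgeR 4.0.16 under R 4.3.3, without covariates, with Benjamini-Hochberg adjustment over all genes tested and a threshold of 0.05. CPM use TMM-scaled library sizes. The code was tested on simulated data. Alternatives were other scaling, other filters, DESeq2 1.42.0, limma-voom (limma 3.58.1), a replicate block, and leaving out each library. Named genes are Slc6a6, the 35 genes and, from each list of other splicing genes, the 3 with the smallest p at a mean of at least 5 CPM, 1 of which is not reported here; Srsf9, Srsf4 and the others among the 35 that lead a paragraph were picked after their values were seen. The 35 genes and all lists were chosen with earlier results of these data known. GENCODE M21, matched by symbol, gave lengths (49853 genes, 98.2% of counts), overlaps and transcript types. RefSeq promoters are from GRCm38.p6.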

Additional observations from a re-analysis of the deposited data

How the results depend on the processing

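Over all genes, DESeq2 called 1075 higher and 920 lower, the replicate block 8 and 20, and leaving out 1 library 13 to 371 higher and 29 to 247 lower, against 250 and 293 as reported. Of the 35 splicing factor genes DESeq2 called 1 lower (Srsf9), and every other alternative 0, leaving out each library included; the adjusted p of Srsf9 ran from 0.0481 to 0.294 and that of Srsf4 from 0.0986 to 0.440. The median log2 fold change of the 35 ran from −0.0627 (without WT1) to 0.022 when a library was left out. Of the other splicing genes, DESeq2 called 3 higher and 4 lower, total counts, limma-voom and no filter 1 lower each (Esrp2), the replicate block 0 lower, and leaving out a library 0 to 1 higher (Clk3, without KO2) and 1 to 1 lower. The cause was not tested.

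The log2 fold changes of 14 of the 35 genes and the differences of 4 of the 6 ratios changed sign under some alternative. Scaling by total counts put Srsf2 at −0.00332. Leaving out a library, log2 fold changes ran from −0.0913 to 0.0868 for Srsf1, −0.0906 to 0.0579 for Srsf2, −0.0412 to 0.108 for Srsf6, −0.00638 to 0.0609 for Srsf11, −0.0455 to 0.0144 for Hnrnpa3, −0.119 to 0.0403 for Hnrnpab, −0.00829 to 0.0322 for Hnrnph1, −0.0139 to 0.214 for Hnrnpl, −0.0244 to 0.0388 for Ptbp1, −0.0752 to 0.131 for U2af1, −0.0627 to 0.199 for U2af2, −0.0476 to 0.0652 for Sf3b2, −0.0673 to 0.000979 for Sf3b3 and −0.0276 to 0.0521 for Rbm39. Differences of the log2 ratios ran from −0.0529 to 0.0712 for Tra2a to Tra2b, −0.169 to 0.00661 for Ptbp1 to Ptbp3, −0.0264 to 0.0839 for Srsf3 to Srsf7 and −0.0691 to 0.0256 for Srsf2 to Srsf1.

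Libraries of the same number did not deviate together (r = 0.06, −0.14 and −0.07 over genes), which gives no sign that the numbers pair them. With 3 libraries in each group, such values cannot exclude a pairing. No pairing is stated in the labels, and the replicate block stands as an alternative setting. Under it 0 of the 35 genes were called and Esrp2 was at an adjusted p of 0.0509.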
